A study of Homo sapiens with 30 samples.

Results

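The list for the ND6 editor held 716 regions of the nuclear genome of HEK293T cells, a human embryonic kidney line, out of 1949 entries in the 4 lists of the series. Every entry of the ND6 list was taken, and its class was read from the token IND, DL or DR in the region's identifier. Class IND held 596 regions, class DL 91 and class DR 29. The lists of the ND4, ND5.1 and ND5.3 editors, with 83, 539 and 611 regions, serve below as background only.

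The study mapped deoxyuridine with Detect-seq after cells had received DdCBEs, base editors meant for mitochondrial DNA. Of its 30 libraries, 9 name the ND6 list in their labels. They were 1 input library (ND6-All, not enriched), 2 pulldown libraries of ND6-All, 2 pulldown libraries labelled Lipo2000-ND6-All, 1 of the ND6 editor with dead DddA, 1 without its left and 1 without its right TALE array, and 1 with DddA parts that carry no TALE array. All 8 ND6 libraries are of the L1397N orientation of split DddA. The labels give no time and do not state whether replicates were separate cultures. The list has 1 value per region and none per library, so it carries no error between replicates, no control level and no depth, and intervals below are 95% Wilson intervals that cover counting error over regions only.

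A DdCBE joins the parts of a split bacterial deaminase, DddA, to a left and a right TALE array, which are proteins built to bind chosen DNA bases, and to an inhibitor of uracil repair. When both arrays sit side by side on DNA, the parts of DddA meet and turn cytosine in double-stranded DNA into uracil, preferably where a T precedes the C. The ND6 gene of mitochondrial DNA encodes a subunit of complex I, so the editor is meant to act inside mitochondria, and deoxyuridine in the nucleus is an off-target mark. Detect-seq swaps uracil for labelled nucleotides, pulls the labelled DNA down, and makes the uracil and cytosines that follow it read as T. The study's published account separates off-targets that depend on the sequence bound by the TALE arrays from those that do not. The files do not define the tokens IND, DL and DR, and the names are used here without that reading.

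Sequence could be read where a region lay inside a RefSeq promoter window of 300 bases on GRCh38.p14, which runs from 250 bases before a gene's start to 50 after it. Of the 716 regions, 46 touched such a window, and 41 of these lay inside with flanks to spare (39 of class IND and 2 of class DL). The sequences below describe promoter regions and not the list as a whole. The class IND examples come first, with the listed region in capitals and up to 10 flanking bases on either side in lower case, 5′ to 3′ on the strand that the list names. They are the promoter region of highest signal and the members of groups that share letters.

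SLC30A5 (chr5:69093805-69093830, minus strand): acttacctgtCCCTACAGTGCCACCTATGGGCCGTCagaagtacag
ZSCAN25 (chr7:99616886-99616907, minus strand): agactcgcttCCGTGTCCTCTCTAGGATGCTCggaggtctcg
SEC14L1 and SNHG20 (chr17:77088593-77088630, plus strand): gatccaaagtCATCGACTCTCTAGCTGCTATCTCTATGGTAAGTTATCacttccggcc
ARL14EP and ARL14EP-DT (chr11:30323026-30323048, plus strand): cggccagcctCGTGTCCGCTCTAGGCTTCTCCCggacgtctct
TIMM10 (chr11:57530894-57530909, minus strand): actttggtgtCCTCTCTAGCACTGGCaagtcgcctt
ZSCAN30 (chr18:35290317-35290330, minus strand): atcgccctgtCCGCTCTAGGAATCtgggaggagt
COX7A2 (chr6:75243922-75243932, plus strand): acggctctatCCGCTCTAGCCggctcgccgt
ZNF620 (chr3:40505989-40506002, minus strand): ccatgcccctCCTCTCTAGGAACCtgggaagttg
FAM200A (chr7:99552169-99552183, plus strand): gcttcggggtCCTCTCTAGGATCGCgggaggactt
COA1 (chr7:43729561-43729574, minus strand): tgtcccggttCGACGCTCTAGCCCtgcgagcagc
LOC124900823 (chr4:183472417-183472431, minus strand): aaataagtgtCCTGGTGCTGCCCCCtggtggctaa
SPATA41 (chr15:100350300-100350336, minus strand): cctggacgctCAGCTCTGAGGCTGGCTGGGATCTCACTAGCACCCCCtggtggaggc
DMKN (chr19:35510560-35510579, minus strand): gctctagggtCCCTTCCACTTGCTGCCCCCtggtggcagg
CPNE4 (chr3:132035062-132035071, plus strand): tccgaaacctCCGCGCGAGCgccccctggg
AAAS (chr12:53321676-53321684, plus strand): aaagcttcttCCTGCGCCCcctggcggcc
RUFY4 (chr2:218034906-218034916, plus strand): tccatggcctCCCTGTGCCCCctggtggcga
PRR3 and GNL1 (chr6:30556647-30556663, minus strand): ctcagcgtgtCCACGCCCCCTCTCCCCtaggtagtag
ORC4 and MBD5 (chr2:148020818-148020831, plus strand): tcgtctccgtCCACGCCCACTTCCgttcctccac
ADAT2 (chr6:143450864-143450877, plus strand): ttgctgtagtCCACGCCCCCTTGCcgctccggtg
FANCE (chr6:35452199-35452210, plus strand): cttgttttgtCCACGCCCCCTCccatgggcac
ZNF330 (chr4:141220892-141220908, minus strand): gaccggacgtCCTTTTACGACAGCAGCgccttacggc
DNAJC19 (chr3:180989770-180989782, minus strand): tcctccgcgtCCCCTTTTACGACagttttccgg
MLF1 (chr3:158571106-158571142, plus strand): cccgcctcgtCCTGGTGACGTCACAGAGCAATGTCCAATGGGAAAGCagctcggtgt
ZFYVE27 (chr10:97737092-97737112, minus strand): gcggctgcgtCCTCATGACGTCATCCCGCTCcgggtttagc

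Every one of the 39 class IND regions read whole began and ended with a C on its listed strand. The base before the first C was T in 38 of them and A in 1, at EIF3D, a translation initiation subunit. This T is the 5′ neighbour that DddA prefers. Counting from 1 was chosen because regions began and ended with C only then, so the C at both ends is no separate support for that count. Counted so, the listed strand of these regions is the one that carries the cytosines. The first base was followed by a second C in 31 of 39 regions, and G and T stood together before the first base in 23. Ends differed from starts: the base before the last C was C in 17, G in 11, T in 7 and A in 4. These 39 regions were 7 to 42 bases long, and held a median of 7 C (4 to 14) and a median of 2 C preceded by T.

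Groups of these promoter regions shared letters, which were picked after reading the sequences and searched on both strands in the region and its 10 flanking bases. CTCTAG (reverse CTAGAG) was in 10 of 39, at ZSCAN25, SEC14L1, ARL14EP, DMKN, TIMM10, ZSCAN30, COX7A2, ZNF620, FAM200A and COA1, and in 9 of them it lay in the region itself. Over windows of equal length, 13 of the 39 windows hit (33.3%) and 3935 of all 34781 windows (11.3%) held it. Since the letters were picked from these same regions, a higher share in hit windows follows from that choice. Such shares, here and below, do not measure enrichment. Signal among its 10 members ran from 4.83 at COA1 to 41.6 at ZSCAN25, with a median of 6.40. CCCCCTGG (reverse CCAGGGGG) was in 6, at LOC124900823, SPATA41, DMKN, CPNE4, AAAS and RUFY4, each time across or just past the region's end, against 17.9% of hit windows and 2.70% of all windows. Its letters also occur in the binding motif of CTCF, a protein that shapes chromatin loops.

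GTCCACGC (reverse GCGTGGAC) was in 4 regions, each time with its GT in the flank, at PRR3, ORC4, ADAT2 and FANCE, and in 12.8% of hit against 0.730% of all windows. Their signals lay close together, from 5.86 at FANCE to 8.63 at PRR3. TTTTACGAC (reverse GTCGTAAAA) was inside the regions at ZNF330 and DNAJC19 and in 24 of all 34781 windows (0.069%). The palindrome TGACGTCA, the letters of the cAMP response element, was inside those at MLF1 and ZFYVE27 and in 1.84% of all windows. Apart from the palindrome, every match read as written on the listed strand, which is also the strand the letters were picked from. Over the 5 letter groups, 23 of 39 regions held at least 1, and DMKN held CTCTAG and CCCCCTGG, which do not overlap there. A match is a description of letters and not evidence that a factor binds.

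Class DL looked different. Its listed interval was always 11 bases long and that of class DR 12, and each had a further interval beside it, whereas class IND regions were 5 to 67 bases long (median 17.5) with no separate further interval. The only class DL regions that could be read together with their further interval are shown on the listed strand, with the short listed interval in capitals and the further interval lying after the capitals at USP54 and across them at LINC02317. They are shown because their short intervals share letters that the coordinates alone do not reveal.

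USP54 (chr10:73625699-73625709, plus strand): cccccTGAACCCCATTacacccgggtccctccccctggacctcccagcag
LINC02317 (chr14:90455249-90455259, minus strand): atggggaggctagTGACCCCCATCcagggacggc

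The short intervals at USP54 and LINC02317 were TGAACCCCATT and TGACCCCCATC, which share 9 of 11 bases, and neither begins with C as the class IND regions do. The shared part, TGANCCCCAT on either strand, was in 64 of 34781 promoter windows (0.184%). The further interval did begin and end with C, with T before the first C in both. At USP54, a deubiquitinase family gene (chr10:73625699-73625709, plus strand, signal 7.09), it lay after the short interval on the same strand, beginning 21 bases from the first base. At LINC02317, a long noncoding RNA (chr14:90455249-90455259, minus strand, signal 6.53), the cytosines lay on the opposite strand. There the further interval overlapped the short interval and ended 15 bases from its first base. With 1 region of each layout, whether strand goes with layout was not tested.

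Over all class DL and DR regions, the 2 layouts stood out from the coordinates. Read along the listed strand from the first base of the short interval as 0, the further interval of 54 of 91 class DL regions lay wholly after it. These began at 19 bases in 22 regions, at 20 in 22, at 21 in 8 and at 18 in 2, and ended anywhere from 26 to 55. In the other 37 class DL regions the further interval overlapped the short interval, and its last base lay at 14 to 17 in 34 of them (16 in 18 regions) while its first base ranged from -29 to 10. The edge that faced the other layout was thus narrow in both, and the edge that faced away was not. No further interval of either class lay wholly before the short interval.

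Class DR held nearly the overlapping layout alone. Of 29 regions, 28 overlapped, with the last base of the further interval at 16 in 20 regions, at 15 in 7 and at 18 in 1, and 1 region began at 21. The 3 class DL regions outside the pattern were those on chr5:77948059-77948069, whose further interval of 82 bases ran from -6 to 75, on chr15:95715646-95715656 (7 to 46) and on chr17:56977163-56977173 (-5 to 35). Signal did not separate the layouts by much, with a median of 6.89 for the class DL regions with the further interval after and 6.45 for those with overlap. As background, 12 of 13 class DL and 25 of 26 class DR regions of the ND5.1 list overlapped, as did all 12 of ND4.

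**Figure D1:**
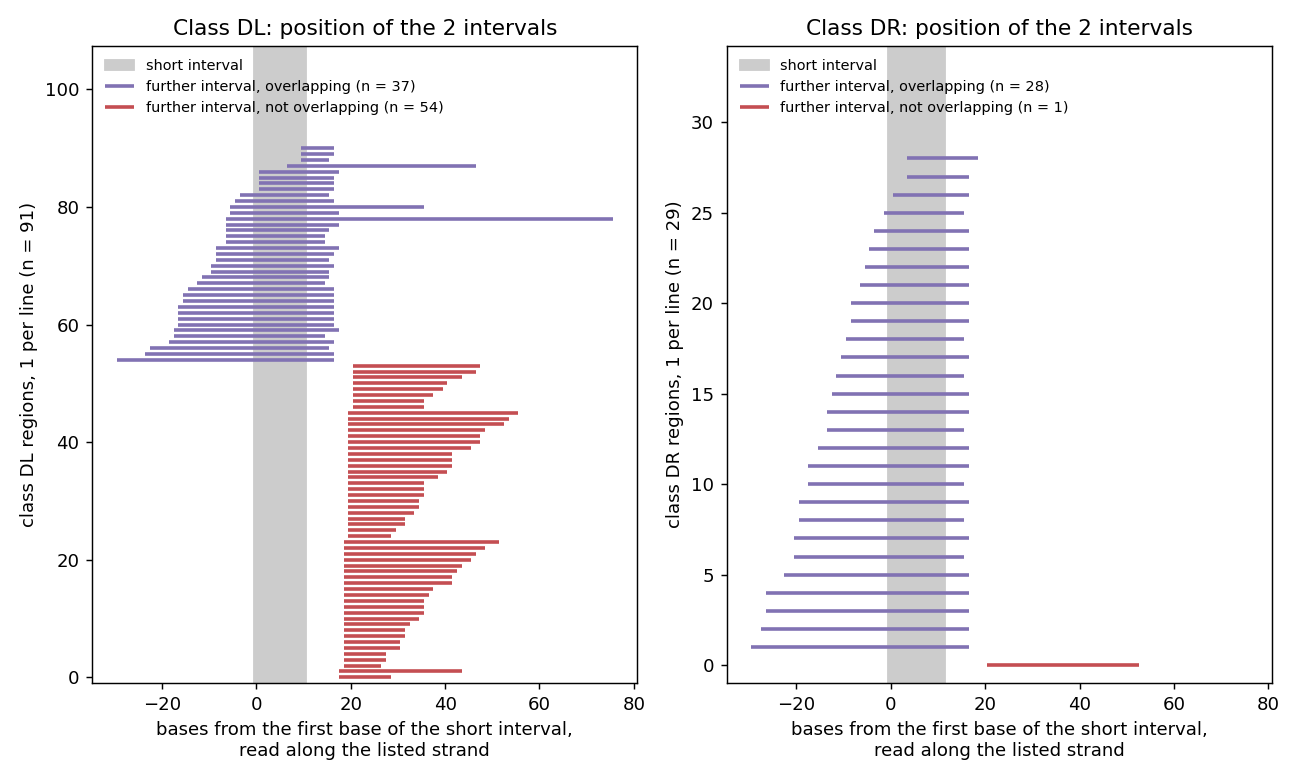
Each line is the further interval of 1 region of class DL (left, n = 91) or DR (right, n = 29) of the ND6 list, placed in bases from the first base of the short interval (grey) along the listed strand. In class DL, 54 further intervals begin 18 to 21 bases away and 34 of the 37 overlapping ones end at 14 to 17, and in class DR 28 of 29 overlap and end at 15 to 18.

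Both strands were used about equally in the ND6 list. The plus strand held 377 of 716 regions (52.7%, 49.0 to 56.3), with 318 of 596 in class IND (53.4%), 44 of 91 in class DL (48.4%) and 15 of 29 in class DR (51.7%). Classes DL and DR together did not differ from class IND by a margin that passed Fisher's exact test (49.2% against 53.4%, adjusted p = 0.479 over 4 features, with regions treated as independent). By layout within class DL, given with no test, the plus strand held 31 of the 54 regions with the further interval after and 13 of the 37 with overlap. In the ND5.1 list all 13 class DL and 26 class DR regions were on the minus strand, and in ND4 all 11 class DR regions were. The plus share of whole lists was higher in ND6 than in ND5.1 (45.5%, Fisher's exact test, adjusted p = 0.0121) and ND4 (33.7%, adjusted p = 0.00151). Within class IND the order against ND5.1 turned, with 53.4% in ND6, 55.3% in ND5.1 and 44.4% in ND4, values that carry no test. Lists hold regions in common, so the tests between lists are not over independent regions. ND6 shared 280 with ND5.1 and 25 with ND4, each on the same strand in both. Over the other lists together, ND6 regions had 794 overlaps, all with identical bounds and most with ND5.3, which gives no strand.

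The class make-up of ND6 also differed from the other lists that give classes. Class IND made up 83.2% of ND6 (80.3 to 85.8), 61.8% of ND5.1 and 43.4% of ND4 (Fisher's exact test, adjusted p = 5.31e-17 and 5.32e-14). The direction turned when the class IND.Extend, which ND6 lacks, was counted with IND, with differences of -9.52 percentage points from ND5.1 (Fisher's exact test, adjusted p = 1.33e-06) and -2.30 from ND4 (adjusted p = 0.755). Class DL was the larger of the minor classes in ND6 (12.7%, 10.5 to 15.3, against 4.05% for DR), and the smaller in ND5.1 (2.41% against 4.82%) and ND4 (1.20% against 13.3%). These shares of DL and DR between lists are given as values with no test.

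The authors' signal value is a score with no stated scale, and it is used here only within the ND6 list. It ran from 2.84 to 116.4, a ratio of 41.0, with a median of 9.33 and quartiles of 6.54 and 16.1. The 72 highest regions, 10% of the list, held 32.9% of the summed signal, 12 regions held 10.1%, and 151 regions held 50% of it. By class, the median was 10.4 in IND (quartiles 7.13 and 17.998), 6.68 in DL (5.45 and 8.77) and 6.11 in DR (5.14 and 7.63). Classes DL and DR together were lower than IND by a log2 difference of -0.67 between medians, which was 0.028 and so not lower when set against the 99 class IND regions found in no other list (median 6.37).

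Class changed along the ranks. With the list cut by signal into 4 parts of 179 regions, 176 regions of the highest part were of class IND, 2 of DL and 1 of DR. The following parts held 159, 144 and 117 class IND regions, and the lowest part 44 of class DL and 18 of class DR. The best ranks of DL and DR were 81 and 159. All of the 72 highest regions were of class IND and in at least 1 other list, with 20 in all 4. Being in another list was common, with 497 of the 596 class IND regions. From the highest to the lowest part, 175, 147, 112 and 63 of 179 regions were in another list. Length went with rank in class IND, with medians of 22, 18, 16 and 14 bases from the highest to the lowest part. The correlation of log2 signal with length over the 596 regions was Pearson r = 0.28 and Spearman rho = 0.33. Both are given as a description over regions of 1 list. Strand and gene bodies changed little along the ranks, with 50.8%, 54.7%, 54.7% and 50.3% of each part on the plus strand and 54.7%, 54.2%, 60.9% and 60.3% in gene bodies.

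**Figure D2:**
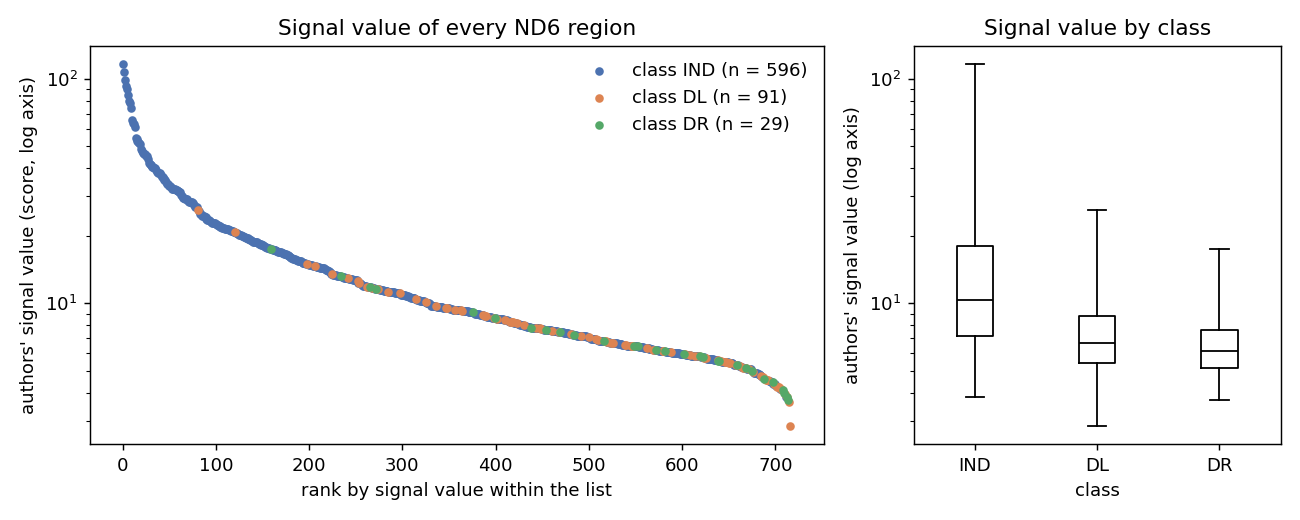
Left, the authors' signal value (log axis) of each of the 716 ND6 regions against its rank, coloured by class. Right, boxes show quartiles and median and whiskers the full range by class. The 72 highest regions are all of class IND, and the medians of DL and DR, 6.68 and 6.11, lie under that of IND, 10.4.

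The strongest region was 12.5 times the median of the list, and 10 of the 12 highest were on the plus strand. The highest, 116.4, was in GRK5, a kinase that desensitises G protein-coupled receptors, 36 bases long on the strand of the gene (chr10:119445511-119445546). The next were 107.8 in STUM, 305 bp from its bound (chr1:226608903-226608925), and 98.4 in CORO2B, a coronin that binds actin (chr15:68651256-68651277, 9753 bp from the nearest annotated start). Ranks 4 to 6 were in no annotated gene, with 93.1 on chromosome 21, 90.4 at 867 bp from TRIM14 on chromosome 9 and 85.1 on chromosome 8. Thereafter came 79.6 in the pseudogene TUBB4BP7, 78.1 in AAK1, a kinase of clathrin coats, against the strand of the gene, and 74.5 on chr17:8410441-8410462, 2669 bp from NDEL1, a dynein regulator. Ranks 10 to 12 were 65.8 in SV2B, a synaptic vesicle protein, on its strand, 63.5 between genes on chr6:129775310-129775337, and 63.1 in BLOC1S3, a subunit of a complex for lysosome-related organelles, on its strand. None of the 11 outside chromosome 8 lay within 1 kb of a start that has a promoter window, and STUM has none. The region of rank 13, at SLC30A5, a zinc transporter, was the first in such a place (60.7).

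The strongest class DL regions were in or near genes of varied kind. The highest, 26.0, was the exception with the long further interval, in the long noncoding RNA LOC101929154 (chr5:77948059-77948069, minus strand). The next, 20.7, lay 517 bp from the start of KCNH6, a voltage-gated potassium channel, with its further interval at 20 to 45 (chr17:63523875-63523885, plus strand). After these came 14.9 in VSTM2B-DT (chr19:29404096-29404106) and 14.6 in LOC124900669 (chr4:13524754-13524764), both with overlap from -16 to 16. The strongest class DR regions were 17.5 in CCDC38 (chr12:95870389-95870400), 13.2 between genes on chromosome 8, 11.8 in CFAP95, 736 bp from its start (chr9:69821553-69821564), and 11.6 between genes on chr13:79216810-79216821. Of class IND regions in no other list, the strongest was 19.2 on chr17:73796899-73796935, in LINC00469 and LINC02092. The 3 lowest signals of the list were of class DR and DL, with 3.71 in GNAI3, an inhibitory G protein subunit, 3.65 in EMP1, an epithelial membrane protein, and 2.84 in BRPF3-AS1.

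Few regions of the ND6 list lay within 10 kb of each other. A neighbour within 100 kb was found for 88 regions (12.3%) and within 1 Mb for 381 (53.2%). Whether they lay closer than their density gives was not tested. The median distance to the nearest other region was 879995 bp, and 12 regions (1.68%, 0.961 to 2.91) had a neighbour within 10 kb, 8 of class IND, 3 of DL and 1 of DR. Classes DL and DR did not differ from IND by a margin that passed Fisher's exact test (3.33% against 1.34%, adjusted p = 0.319). With neighbours within 1 kb merged, where 1 place with 2 entries counts once, the difference fell from 1.99 to 0.338 percentage points (adjusted p = 0.676, Fisher's exact test). These 12 regions formed 6 pairs, 5 of them on chromosome 1. In DAB1, an adaptor of reelin signalling, class IND regions of signal 11.9 and 15.9 lay 7596 bp apart, both on the plus strand and both 24 bases long. In GNAI3 the class DL region of 7.98 and the class DR region of 3.71 lay 6063 bp apart on the plus strand. In SMYD2, a lysine methyltransferase, class IND regions of 7.11 and 20.7 lay 1093 bp apart on opposite strands. The remaining chromosome 1 pairs were 6190 bp apart near RPLP0P4 (19.8 and 16.7) and 6950 bp apart near LOC102724382 (7.57 and 14.5).

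The sixth pair was 1 place listed for 2 further intervals. Both entries gave chr18:24878785-24878795 on the plus strand, of class DL, with signal 8.78 for a further interval that began at 24878768 and 7.70 for 1 that began at 24878779, both ending at 24878802. Chained within 100 kb, 628 regions stood alone, 39 chains held 2, and 3 chains held more. The longest, on chr1:155050609-155207032, held 4 class IND regions of signal 6.41 in DCST1, 5.91 in EFNA3, an ephrin ligand, 9.43 near KRTCAP2 and 23.1 in THBS3, a thrombospondin. On chr16:2842641-2961896, class IND regions of 17.8 in PRSS30P, 10.7 in FLYWCH1 and 8.66 near KREMEN2, a receptor of Dickkopf proteins, formed another. On chr10:69743384-69829403, class IND regions of 5.12 and 33.2 between genes chained with a class DL region of 8.30 in COL13A1, a collagen.

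Chromosomes held regions roughly as they held genes. Per 100 Mb of gene-spanned length, the list had 24.2 regions in all, from 10.9 on X and 11.6 on chromosome 4 to 52.4 on 22 and 54.7 on 19. Across the 23 chromosomes, regions per 100 Mb went with annotated genes per 100 Mb (Pearson r = 0.90, Spearman rho = 0.86). This is given as a description, since gene density, base composition and mappability run together along chromosomes. Chromosomes of like gene density could differ, with 20.9 regions and 2406 genes per 100 Mb on chromosome 14, against 35.8 and 2296 on chromosome 20. Per 1000 genes, chromosome 14 had 8.69 regions and chromosome 20, among the highest, 15.6. Chromosomes X (7.27), 4 (8.14), 2 (8.49) and 13 (8.53) had fewer than chromosome 14. Median signal per chromosome ran from 6.68 on 21 to 13.7 on 15.

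**Figure D3:**
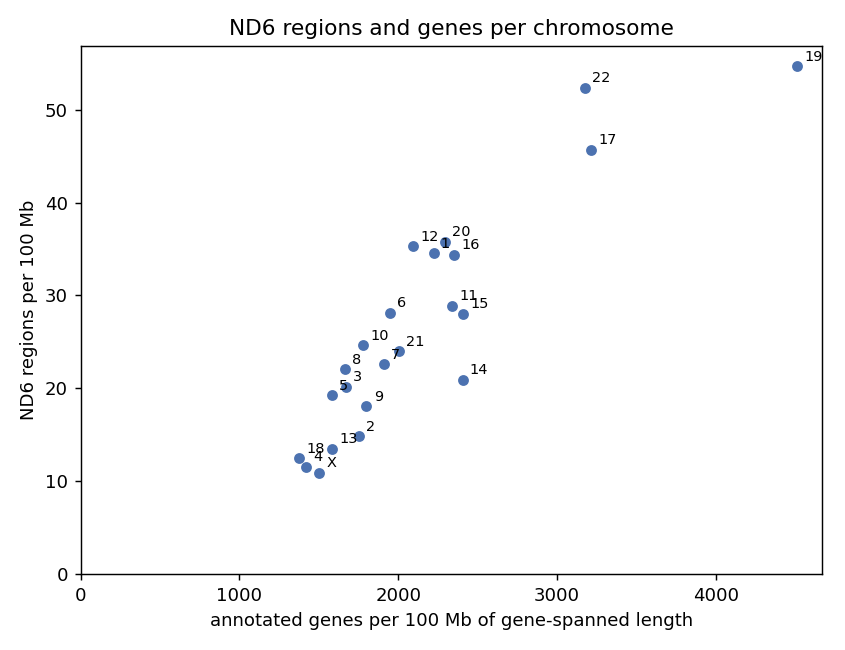
ND6 regions per 100 Mb against annotated genes per 100 Mb, both over the length between the first and last gene, with 1 point for each of the 23 chromosomes. Chromosomes 19, 22 and 17 are highest on both axes, and X, 4 and 18 have the fewest regions per 100 Mb.

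Gene bodies held 412 of 716 regions (57.5%, 53.9 to 61.1), 321 of them in protein-coding genes (44.8%). The share of the genome that gene bodies cover is not given here, so these shares cannot show a preference for genes. By class the share was 56.9% in IND, 62.6% in DL and 55.2% in DR, and DL with DR did not differ from IND by a margin that passed Fisher's exact test (60.8% against 56.9%, adjusted p = 0.479). The regions lay in 465 distinct genes, 340 protein-coding and 110 long noncoding. Overlapping genes were each counted, here and in the family counts below, and 45 regions lay in more than 1 gene. A single class IND region of 9 bases lay in many nested genes of the PCDHG cluster on chromosome 5. Protein-coding genes that held a region were long, with a median of 93.1 kb against 24.5 kb over all protein-coding genes. A longer gene has more bases in which a region can lie, so this difference cannot show a preference for long genes. The promoter windows, from which gene strand was taken, leave out chromosome 8. For 280 regions in genes whose strand is known and single, 138 were on the strand of the gene (49.3%, 43.5 to 55.1). The share was 117 of 225 in class IND (52.0%), 16 of 44 in DL (36.4%, 23.8 to 51.1) and 5 of 11 in DR, with intervals that overlap.

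Few genes held more than 1 region. The annotated T cell receptor beta locus TRB and the immunoglobulin kappa locus IGK, which span 514 kb and 1378 kb, held 3 each. In TRB they were a class IND region of 21.1, a class DL region of 9.30 and a class IND region of 6.99, and in IGK class IND regions of 16.4, 7.63 and 6.44, all on the plus strand. Another 9 genes held 2 each. Among them, CCDC88C, a Wnt signalling regulator, held 46.0 and 6.02 on opposite strands, ATXN1, a gene altered in a spinocerebellar ataxia, held 17.8 and 8.27 on the minus strand, and JAZF1, a zinc finger gene, held 15.6 and 12.3 on the plus strand. In RIPOR1 a class IND region of 6.37 and a class DL region of 9.29 stood together, and in CCDC141 a class IND region of 12.9 and a class DR region of 3.99. GRAMD1B held 8.41 and 9.33.

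Near gene ends, meaning within 1 kb of either bound of a gene, lay 134 regions (18.7%, 16.0 to 21.7). The share of the genome that lies so near a gene end is not given here to set against it. Classes DL and DR together did not differ from IND by a margin that passed Fisher's exact test (23.3% against 17.8%, adjusted p = 0.319). Their values lay on opposite sides of that of IND. Class DL had 27 of 91 near a gene end (29.7%, 21.3 to 39.7) and class DR 1 of 29 (3.45%, 0.611 to 17.2), against 106 of 596 in IND (17.8%, 14.9 to 21.1). Class DL alone against IND passed (Fisher's exact test, adjusted p = 0.0407) and class DR alone against IND did not (adjusted p = 0.174). The adjustment covers the features of 1 contrast and not the choice among contrasts, and DL was not tested against DR. Where strand is known the ends could be told apart. Of 684 regions outside chromosome 8, 83 were within 1 kb of the first base of a gene only, 19 of the last base only and 5 of both.

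Positions around annotated starts were counted by class. Of the 684 regions, 53 lay within 250 bp of a start (7.75%, 5.97 to 9.996), 97 within 1 kb (14.2%, 11.8 to 17.0) and 253 within 10 kb (37.0%). The 250 bp before a start held the most of any such step, with 35 regions, 34 of class IND and 1 of DL, and the 250 bp after it held 16, 11 of IND and 5 of DL. Within 1 kb lay 22 of 88 class DL regions (25%, 17.1 to 34.96), 74 of 569 of IND (13.0%, 10.5 to 16.0) and 1 of 27 of DR (3.70%). Within 250 bp the shares of DL and IND were alike in value, 7.95% (3.91 to 15.5) and 8.08% (6.12 to 10.6), and DR had 0 of 27, with an upper bound of 12.5%. These start-site shares were chosen after the reference table was seen and carry no test. The other lists had 13.2% (ND5.1), 12.3% (ND5.3) and 12.3% (ND4) within 1 kb, each inside the interval of ND6. These lists hold many of the same regions as ND6, so their shares are not independent of its share.

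**Figure D4:**
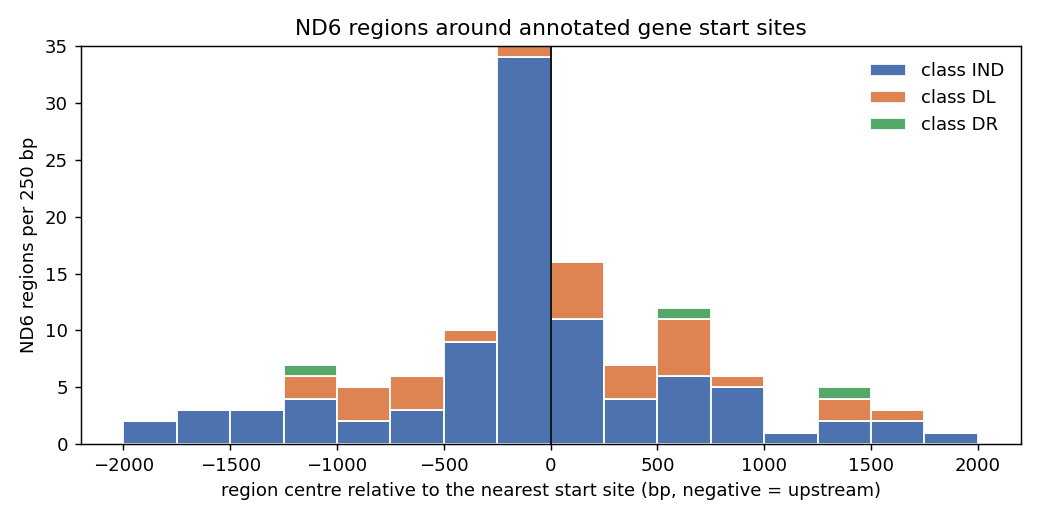
ND6 regions per 250 bp by the position of their centre relative to the nearest annotated gene start (negative is upstream), stacked by class, for regions within 2 kb. The step just upstream holds 35 regions, 34 of them of class IND, and class DL is spread over both sides to 1 kb.

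Promoter windows were touched by 46 regions (6.73% of 684), 43 of class IND and 3 of class DL. The windows cover 0.337% of the gene-spanned length of these chromosomes. Of the 46, 38 had their centre upstream of the start and 32 within 100 bp of it, and 23 were on the strand of the gene. Signal at these regions was not high. Class IND regions within 250 bp of a start had a median of 8.07 (quartiles 5.89 and 13.4, n = 46) against 10.5 for those farther away (n = 523), and the share of regions within 250 bp of a start was 4.14% in the highest of the 4 parts by signal and 11.6% in the lowest.

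The 10 promoter-window regions of highest signal were led by SLC30A5 with 60.7 and ZSCAN25, a zinc finger gene of the SCAN family, with 41.6. LOC124904953 had 32.1, and ZNF330, a zinc finger protein of the nucleolus, 27.9 with the region lying across the start itself. LOC124900823 had 18.7, SLC9A4, a sodium and hydrogen exchanger, 17.7, and LOC124903549 17.3. CFAP52, a protein of motile cilia, had 14.6, SNHG20, a long noncoding host gene of small nucleolar RNA, 14.5, and ARL14EP 13.97. Among the lower ones were several genes of named function. FANCE, of the Fanconi anaemia core complex, had 5.86, ORC4, of the origin recognition complex, 8.52, and ADAT2, a tRNA deaminase subunit, 7.62. The region named for the ADAT2 window lay in the gene PEX3, whose start, 59 bp away, was the nearest. TIMM10, a chaperone of mitochondrial protein import, had 6.49, and DNAJC19, of the import motor, 8.93. COA1, an assembly factor of respiratory complexes, had 4.83.

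Genes of pathways related to the editor's purpose were looked up by name. Among nuclear genes for subunits of oxidative phosphorylation, COX7C and COX7A2, subunits of cytochrome c oxidase, had regions of 6.62 and 6.14 with centres 65.5 and 126 bp upstream of their starts. None of the 21 genes of uracil and base excision repair, 15 of chromatin architecture and 16 of mtDNA maintenance had a region within 1 kb, counts too small to set against the share of all genes.

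Gene families were counted by symbol or gene type. Zinc finger genes had 11 of 587 within 1 kb of a region (1.87%), against 401 of all 19821 protein-coding genes (2.02%). They were led by ZSCAN25 (41.6), ZNF330 (27.9), ZBTB39 (23.7) and ZBTB8B (16.4), and included class DL regions at ZBTB12 (8.76) and ZNF821 (5.33). Of the other families, histone genes had 1 of 188 (H4C2, 5.74), ribosomal protein genes and pseudogenes 1 of 1987 (RPS29, 12.7) and olfactory receptors 1 of 872 (OR51D1, 19.9). There were 1 of 429 tRNA genes (TRV-AAC1-5, 14.6), 1 of 1339 small nuclear and nucleolar RNA genes (RNU6-9, 5.85) and 2 of 1911 microRNA genes (MIR148B, 6.25, and MIR6516, 14.5). Over all 58419 genes the share was 0.964%.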

How the data were processed

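The deposited lists are pooled per editor. The submitters' processing notes name Picard, SAMtools, Bowtie2 and cutadapt and the build hg38. Not given in the sources used here are their versions and roles and how regions were called, classed or pooled over libraries. Per the file headers, the authors deposited for each region a strand, an identifier and a signal value, which is a score of unstated normalization and was used only within the list. Depth per library is unknown. Duplicate libraries could not be checked for.

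Starts and ends were taken as given and counted from 1, since sequence in promoter windows began and ended with C only then. Genes (58419, on 22 autosomes and X) and 34781 distinct promoter windows came from RefSeq tables of GRCh38.p14, a release of the same build. Gene strand came from the windows. Distances were taken between bounds, and an overlap of 1 bp counted. Shares carry 95% Wilson intervals. Classes and lists were compared by two-sided Fisher's exact tests with Benjamini-Hochberg adjustment within each family of 4 and a threshold of 0.05 (scipy 1.17.1), tested on simulated data. Regions named were the 12 highest by signal, the 4 highest of classes DL and DR, the 6 highest in no other list, the 3 lowest, members of chains within 100 kb of 3 or more, genes with 3 or more regions, the 10 highest in promoter windows and all members of fixed gene lists. Other regions were chosen after their values were seen, as were the letters searched for. The members and lists were chosen with earlier results of these data known. Alternatives were merging neighbours within 1 kb, the upper part of the list by signal, class IND alone, protein-coding genes, midpoints and other distances. Some named regions are given without coordinates or not reported here. Exons, introns, UTRs and the libraries themselves were not analysed here.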

Additional observations from a re-analysis of the deposited data

How the results depend on the processing

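Of 40 alternatives to 17 results, 27 were counted as unchanged. They stayed within the interval of the reported value or kept direction and side of the threshold, except where class DR alone changed sign. Against IND, class DR alone gave -1.71 percentage points in gene bodies and -14.3 near gene ends, where DL with DR gave 3.95 and 5.55. None of these differences passed Fisher's exact test. The share of class IND was 93.6% in the upper part of the list by signal, and the 72 highest regions held 15.8% of the sum of log2 signal. The log2 difference of classes DL and DR was 0.028 against class IND found in no other list, a reversed sign. Regions with a neighbour numbered 2 within 1 kb, 88 within 100 kb and 381 within 1 Mb. In protein-coding genes, 44.8% of regions lay in gene bodies and 13.3% near gene ends, and near any gene end 13.0% lay within 500 bp and 45.0% within 5 kb. Class DL alone exceeded class IND near gene ends by 11.9 percentage points (adjusted p = 0.0407, Fisher's exact test). Counting IND.Extend with IND turned the differences of ND6 from ND5.1 and ND4 to -9.52 and -2.30 percentage points.

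No paired analysis was possible because each list gives a region 1 pooled value, and replicate numbers in the labels have no values to pair. Depth is unknown, so nothing here separates a weak region from a thinly sequenced one. Sequence was read for 41 of 716 regions, all in promoters.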
